A study of Mus musculus with 6 samples.

Results

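Hemoglobin and erythroid transcripts were followed in platelet RNA of leukemic and control mice, as a measure of how much red cell RNA the libraries held. The genes were the alpha-globins Hba-a1 and Hba-a2, the beta-globins Hbb-bt and Hbb-bs, the enzymes Bpgm and Alas2 and the membrane protein gene Slc4a1, taken by symbol from the deposited table. Of these 7 symbols, 5 had a row among the 14975 genes of the table, and Hba-a2 and Hbb-bs did not. The means of Hba-a1, Hbb-bt and Bpgm reached 1 FPKM (a read count divided by the length of the gene and by the size of the library), so 3 of the 4412 genes that were tested belong here, and Alas2 and Slc4a1 are given as levels only.

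Platelets came from peripheral blood of mice that the labels describe as C57BL/6 by strain background and as WT or AML by genotype, with 3 libraries each. According to the methods of the study, the control animals were irradiated and received normal bone marrow, and the pre-AML animals were sub-lethally irradiated secondary recipients of hematopoietic cells that carried MLL-AF9 from a retrovirus, examined 1 week after transplantation. Recipients were adult females, and since a sub-lethal dose can leave part of the host's own hematopoiesis, platelets of host origin could be present. The labels give no week, and the groups are called control and pre-AML here. Each library was described as a pool of 3 to 4 mice, and the design text mentions 2 replicates per group where 3 libraries were present. The methods of the study speak of 3 independent mice for RNA-seq, which differs from the pools of the labels. Since these sources differ on what a library holds, p-values are taken to measure the spread between these libraries. Leukocytes with CD45 and erythroid cells with Ter119 had been depleted with antibodies before RNA was extracted, and cDNA was amplified with SMART-Seq2.

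Hemoglobin of adult red cells is a tetramer of alpha and beta chains, each of which holds a heme. Platelets and red cells are both made from a common megakaryocyte-erythroid progenitor, platelets carry no nucleus, and globin mRNA persists for a while in the youngest red cells, the reticulocytes. Globin mRNA in a platelet preparation can therefore stem from red cells or from the platelets themselves, and fewer cells of a type cannot be told apart from less RNA per cell in bulk samples.

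The genes lie in 2 globin clusters and 3 other places. In GENCODE M21 on GRCm38, Hba-a1 lies at chr11:32283511-32284465 and Hba-a2 at chr11:32296489-32297298, both on the plus strand, with the theta-globin gene Hbq1b between them. Hbb-bt, at chr7:103812524-103813996, and Hbb-bs, at chr7:103826534-103828096, lie on the minus strand beside Hbb-y, the embryonic gene at chr7:103851749-103853216. Alas2 is on chromosome X (150547375 to 150570638, plus strand), Bpgm on chromosome 6 (34476207 to 34505613, plus strand) and Slc4a1 on chromosome 11 (102348824 to 102366203, minus strand).

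The 150 bases before the RefSeq start are shown for the adult globin genes and Alas2, because the alpha pair and the beta pair show how alike the gene copies are. RefSeq and GENCODE place some starts differently, so these windows overlap in part or whole with the GENCODE genes given above. They are from RefSeq on GRCm38.p6, read 5′ to 3′ on the strand of the gene, and capitals mark 4 short motifs on either strand: GATAA as in sites of GATA factors, the letters CACCC as in sites of KLF factors, the CCAAT box and the letters TATAA as in a TATA box. The windows are chr11:32283522-32283671 for Hba-a1 and chr11:32296342-32296491 for Hba-a2 on the plus strand, chr7:103813924-103814073 for Hbb-bt and chr7:103827929-103828078 for Hbb-bs on the minus strand, and chrX:150547267-150547416 for Alas2 on the plus strand.
Hba-a1: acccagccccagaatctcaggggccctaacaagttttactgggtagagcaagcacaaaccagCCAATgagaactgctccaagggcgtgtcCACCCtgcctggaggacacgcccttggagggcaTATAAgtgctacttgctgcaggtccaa
Hba-a2: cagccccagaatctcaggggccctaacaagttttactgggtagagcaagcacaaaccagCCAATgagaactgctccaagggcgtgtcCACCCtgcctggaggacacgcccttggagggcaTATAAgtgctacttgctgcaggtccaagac
Hbb-bt: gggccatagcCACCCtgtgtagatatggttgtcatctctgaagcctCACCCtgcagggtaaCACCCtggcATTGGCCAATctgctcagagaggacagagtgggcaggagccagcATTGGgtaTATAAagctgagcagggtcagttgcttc
Hbb-bs: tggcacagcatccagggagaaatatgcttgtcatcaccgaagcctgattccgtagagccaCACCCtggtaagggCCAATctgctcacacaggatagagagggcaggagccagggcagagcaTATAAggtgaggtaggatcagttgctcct
Alas2: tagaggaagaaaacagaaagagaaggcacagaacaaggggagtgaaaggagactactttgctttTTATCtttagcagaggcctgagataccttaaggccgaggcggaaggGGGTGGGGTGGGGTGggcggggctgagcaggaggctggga

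With a shift of 3 bases, the windows of Hba-a1 and Hba-a2 were identical at 147 of 147 positions. All 4 globin windows held the CCAAT box, at least 1 CACCC motif and TATAA, the last of these 27 bases before the start in Hba-a1, 30 in Hba-a2, 28 in Hbb-bt and 29 in Hbb-bs. Hbb-bt had 3 copies of CACCC, and 3 of CCAAT with those read on the other strand, where Hbb-bs had 1 of each. The Alas2 window held GATAA, on the other strand 86 bases before the start, and 3 copies of CACCC on the other strand. Among 32851 RefSeq promoter windows of the same length, 13.3% held GATAA, 37.4% CACCC, 24.5% CCAAT and 14.2% TATAA on either strand. These are matches of letters and no measure of binding.

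The near identity of the gene copies bears on what a row of the table counts. Of the 780 distinct stretches of 31 bases in Hba-a1 transcripts, 588 (75.4%) also occurred in Hba-a2, and of 635 in Hba-a2 the same 588 (92.6%) occurred in Hba-a1. The shortest gene length at which the Hba-a1 row gave whole reads in all 6 libraries was 1479 bases, the sum of the exon lengths of Hba-a1 (812 bases) and Hba-a2 (667 bases), with every value within 0.00434 of a whole read. At other lengths the row was at best 0.134 away. A length of 1479 bases is shared by 9 genes of the annotation, so this is a match of lengths and not a record of what was counted. The row is called Hba-a1 as in the table, and its FPKM may be an average over both alpha-globin genes.

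For the beta genes the table had a row Hbb-bt, whose length came out as that of Hbb-bt (703 bases), and a row Hbb-b1 with a length of 768 bases, the exon length of Hbb-bs. Hbb-bt shared 400 of its 673 stretches of 31 bases (59.4%) with Hbb-bs. Since 21 genes have a length of 768 bases, the Hbb-b1 row was not counted as the member Hbb-bs, and its values are given under its own name. Only its GC content was taken from Hbb-bs, for use with the 768 bases further below. Hbb-y, with 603 stretches, shared 0 with the adult globins. How reads that fit more than 1 gene were counted is not given in the sources used here.

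**Figure D1:**
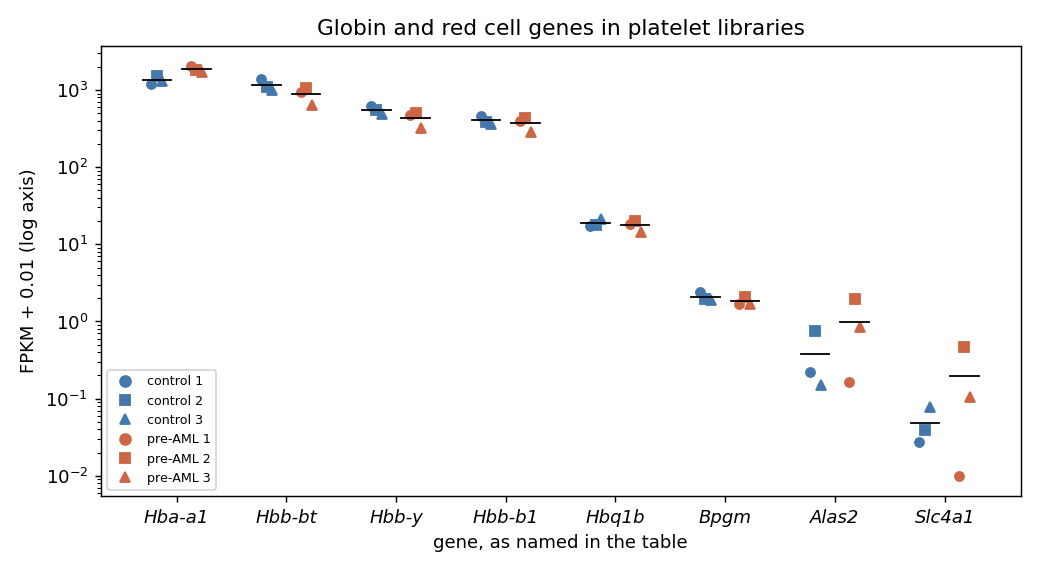
FPKM of 8 rows in the 6 platelet libraries, with 0.01 added for the log axis. Blue points are control and orange points pre-AML libraries, the shape gives the library number and black lines are group means. The beta rows overlapped between the groups, Hba-a1 was higher in each pre-AML library, and Alas2 and Slc4a1 were spread most.

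Alpha-globin was among the abundant transcripts of every library, and its level lay higher in each pre-AML library without passing the test. Hba-a1 was at 1200, 1506 and 1310 FPKM in control 1, 2 and 3, and at 2023, 1799 and 1721 FPKM in pre-AML 1, 2 and 3, from 20840 to 59390 reads per library. All pre-AML libraries lay above all controls, and the rank of the row among all genes of a library went from 38 to 52 in control to 26 to 34 in pre-AML libraries. The control mean was 1339 ± 155 FPKM and the pre-AML mean 1848 ± 156 FPKM (SD, n = 3 each), a ratio of 1.38. On the log2(FPKM + 1) scale the difference was 0.47 (standard error 0.14), with an adjusted p of 0.522 in limma-trend, a model fitted across all 4412 genes with Benjamini-Hochberg adjustment. Among all tested genes, 271 (6.14%) had all pre-AML libraries above all controls, and 113 (2.56%) were higher at an unadjusted p under 0.05.

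The levels of beta-globin lay the other way and overlapped. Hbb-bt, which encodes an adult beta chain, was at 1409, 1079 and 1011 FPKM in the control and at 940, 1056 and 639 FPKM in the pre-AML libraries, from 8461 to 11627 reads. The groups overlapped, with pre-AML 3 lowest and control 1 highest. The difference was -0.43 (standard error 0.21, adjusted p = 0.522 in limma-trend) on the log2(FPKM + 1) scale, and -0.21 without pre-AML 3. Hbb-bt was below Hba-a1 in 5 of 6 libraries, and above it in control 1.

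Of the members that were tested, 0 passed an adjusted p of 0.05 in limma-trend, in either direction, where 1 of all tested genes was higher (0.0227%) and 0 were lower (0%). At an unadjusted p under 0.05, Hba-a1 was the 1 member higher and 0 were lower, against 288 of all tested genes (6.53%) that were lower. No member lay below all controls in all pre-AML libraries, where 564 of the tested genes did (12.8%).

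Bpgm, the enzyme that makes 2,3-bisphosphoglycerate, which lowers the oxygen affinity of hemoglobin, was low and even. It was at 2.40, 1.96 and 1.87 FPKM in control and at 1.68, 2.07 and 1.68 FPKM in pre-AML libraries, from 80 to 141 reads. The groups overlapped, and the difference was -0.13 (standard error 0.16, adjusted p = 0.734 in limma-trend) on the log2(FPKM + 1) scale.

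Alas2, which carries out the first step of heme synthesis in erythroid cells, had few reads in control 1, control 3 and pre-AML 1 and more in the other libraries. It was at 0.213, 0.739 and 0.140 FPKM in control 1, 2 and 3, from 6, 25 and 4 reads. In pre-AML 1, 2 and 3 it was at 0.156, 1.96 and 0.838 FPKM, from 5, 71 and 47 reads. Pre-AML 2 and pre-AML 3 lay above all controls and pre-AML 1 lay among them, so the level differed more within the pre-AML group than between the groups. For scale, 3 reads of Alas2 correspond to 0.0535 to 0.106 FPKM, and recovered reads and such limits cover counting error only.

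Slc4a1, the band 3 anion exchanger of the red cell membrane, was lower still. It had 1, 2 and 4 reads in the control and 0, 34 and 11 reads in the pre-AML libraries, which corresponds to 0.0174, 0.0291 and 0.0687 FPKM and to 0, 0.461 and 0.0964 FPKM. The same 2 pre-AML libraries were highest as for Alas2. The 0 of pre-AML 1 allows a level of up to 0.0461 FPKM, that of 3 reads. With no filter on low values, over all 14975 genes, the differences of Alas2 and Slc4a1 were 0.46 and 0.17 on the log2(FPKM + 1) scale, with an adjusted p of 0.705 for both in limma-trend.

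**Figure D2:**
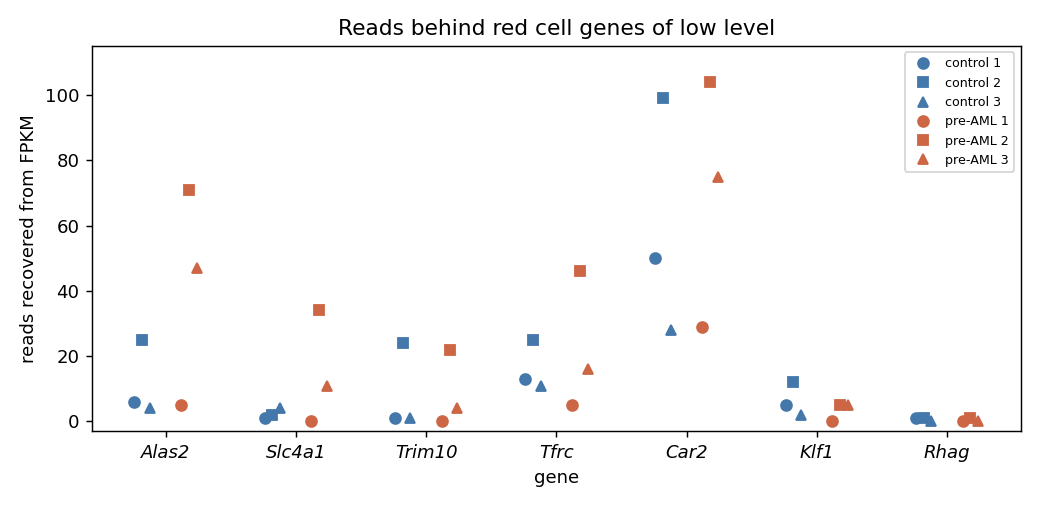
Reads recovered from FPKM for 7 red cell genes of low level in each library, on a linear axis. Blue points are control and orange points pre-AML libraries, and the shape gives the library number. Pre-AML 2 was highest for Alas2 (71 reads), Slc4a1 (34 reads), Tfrc (46 reads) and Car2 (104 reads), and control 2 was highest among controls for Alas2 (25 reads), Trim10 (24 reads), Tfrc (25 reads), Car2 (99 reads) and Klf1 (12 reads). Reads are not corrected for library size, and in FPKM Car2 was higher in control 2 (2.90) than in pre-AML 2 (2.85).

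Low red cell genes thus differed by library, and the abundant globins did not follow them. Trim10, an erythroid gene of terminal maturation, had 24 reads in control 2 and 22 in pre-AML 2, and 0 to 4 in the other libraries. Tfrc, the transferrin receptor through which erythroid precursors take up iron, had 5 to 46 reads, and Car2, a carbonic anhydrase of red cells, had 28 to 104. Per 1000 FPKM of Hba-a1, Alas2 was at 0.177, 0.491 and 0.107 FPKM in the control and at 0.0773, 1.09 and 0.487 FPKM in the pre-AML libraries. This ratio overlapped between the groups, and pre-AML 1, with the highest Hba-a1 of all libraries, had the lowest.

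The alpha and beta rows were then set against each other within each library, where a library's scaling cancels. This ratio was chosen after the values had been seen and is described with no test. Hba-a1 over Hbb-bt was 0.852, 1.40 and 1.29 in control 1, 2 and 3 and 2.15, 1.70 and 2.70 in pre-AML 1, 2 and 3. The groups did not overlap, with a mean of 1.18 ± 0.289 (SD, n = 3) against 2.18 ± 0.496 (SD, n = 3), or 0.89 on the log2 scale. Against the sum of Hbb-bt and Hbb-b1, Hba-a1 was 0.642 to 1.02 in control and 1.21 to 1.86 in pre-AML libraries, also without overlap.

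The ratios among the beta rows were spread less. Hbb-y over Hbb-bt was 0.437 to 0.504 in control and 0.470 to 0.511 in pre-AML libraries, and the groups overlapped. Hbb-b1 over Hbb-bt was 0.326 to 0.362 in control and 0.413 to 0.449 in pre-AML libraries, so that all pre-AML libraries lay above all controls, with group means of 0.348 ± 0.0189 and 0.428 ± 0.0186 (SD, n = 3 each). For this ratio and those of alpha to beta, how many pairs of other genes separate likewise was not counted.

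**Figure D3:**
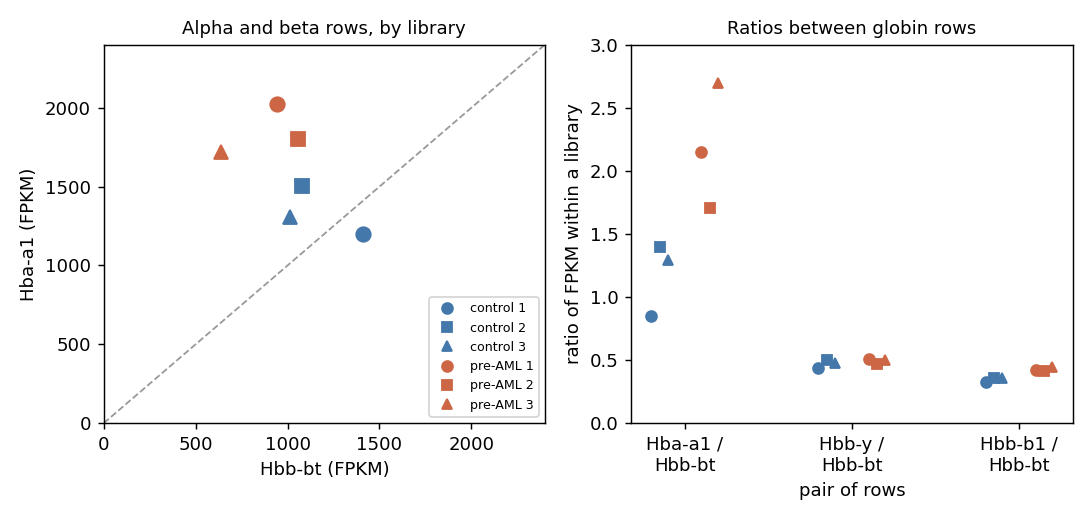
Left, FPKM of Hba-a1 against that of Hbb-bt in each library, where the dashed line marks equal levels. Right, the ratio of FPKM of Hba-a1, Hbb-y and Hbb-b1 to Hbb-bt within each library, with blue points for control, orange points for pre-AML and the shape for the library number. Hba-a1 over Hbb-bt was at most 1.40 in control and at least 1.70 in pre-AML libraries, and Hbb-y over Hbb-bt stayed between 0.437 and 0.511.

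Base composition is set beside these ratios because it moved with the fold changes of all genes. Transcripts of Hba-a1 have a GC content of 57.4% and those of Hba-a2 57.2%, against 50.8% for Hbb-bt, 52.2% for Hbb-bs and 48.8% for Hbb-y. The Hba-a1 row was given the GC content of Hba-a1 and Hba-a2 transcripts together, and the Hbb-b1 row that of Hbb-bs. Among tested genes, the median log2 fold change was 0.13 for the 975 genes with a GC content above 55% and -0.10 for the 1720 genes between 45% and 52%. After loess fits to length and GC content had been subtracted in each library, the difference of Hba-a1 was 0.26 (adjusted p = 0.787 in limma-trend) and that of Hbb-bt -0.44, and 0 members had an unadjusted p under 0.05. The log2 ratio of Hba-a1 to Hbb-bt then differed by 0.71 between the group means, and the groups still did not overlap. Hbq1b, with a GC content of 55.2%, was at -0.10 before and at -0.24 after the removal.

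**Figure D4:**
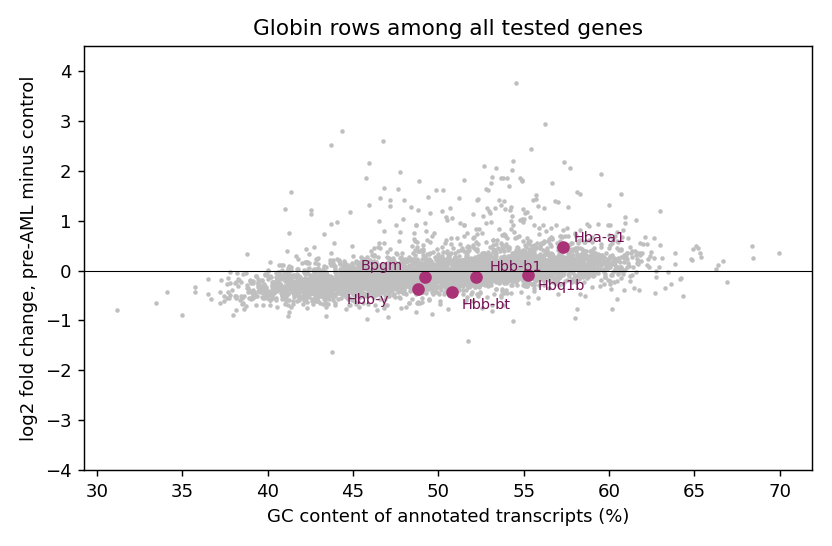
Log2 fold change, pre-AML minus control on the log2(FPKM + 1) scale, against the GC content of annotated transcripts, with a grey point for each of the 4398 tested genes that have a GC value and purple points for 5 globin rows and Bpgm. Hba-a1 lies at 0.47 and the other purple points lie below 0, where Hbb-b1 and Hbq1b were above 0 at the same sum of FPKM. The Hba-a1 row is drawn at the GC content of Hba-a1 and Hba-a2 together, and the Hbb-b1 row at that of Hbb-bs.

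The share of hemoglobin RNA was read from summed FPKM, which does not depend on a library's scaling. The 8 hemoglobin rows of the table made up 0.684%, 0.680% and 0.618% of all FPKM in control 1, 2 and 3, and 0.725%, 0.749% and 0.793% in pre-AML 1, 2 and 3. The groups did not overlap. How many of all genes separate on this measure was not counted. Scaling to the same sum of FPKM moved the median log2 difference of all tested genes from -0.06 to 0.08. Hba-a1 alone was at 0.222% to 0.289% in control and at 0.354% to 0.458% in pre-AML libraries, while Hbb-bt was at 0.196% to 0.260% and at 0.170% to 0.208% and overlapped. In FPKM, the sum of the 8 rows was 3478 ± 263 in control and 3551 ± 492 in pre-AML libraries (SD, n = 3 each) and overlapped.

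Against Pf4, the platelet chemokine with the highest level of the platelet markers, Hbb-bt lay within a narrow range. Per 1000 FPKM of Pf4, Hbb-bt was at 17.8, 17.4 and 17.4 FPKM in the control and at 15.7, 17.8 and 16.7 FPKM in the pre-AML libraries. Hba-a1 was at 15.1 to 24.2 FPKM per 1000 FPKM of Pf4 in control and at 30.3 to 45.1 FPKM in pre-AML libraries, without overlap. How many of all genes separate when set against Pf4 was not counted. Pf4 itself was at 58031 to 79255 FPKM in control and at 38150 to 60066 FPKM in pre-AML libraries, with pre-AML 3 lowest. The log2 difference was -0.36 (adjusted p = 0.534 in limma-trend).

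The other globin rows spanned a wide range of levels. Hbb-y, a beta-like chain of embryonic red cells, was at 615, 544 and 486 FPKM in the control and at 480, 496 and 320 FPKM in the pre-AML libraries, a log2 difference of -0.36 (standard error 0.19, adjusted p = 0.526 in limma-trend). Without pre-AML 3 it was -0.16. Hbb-y ranked 94 to 129 among the genes of a library. Hbb-b1 was at 460, 391 and 359 FPKM and at 397, 436 and 287 FPKM, with a log2 difference of -0.13 that was 0.044 with every library scaled to the same sum of FPKM. Hbq1b, a theta-globin, was at 17.4 to 20.98 FPKM in control and 14.4 to 20.2 FPKM in pre-AML libraries, with a log2 difference of -0.10 that was 0.066 at the same sum of FPKM.

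The embryonic genes Hbb-bh1 and Hba-x were at 0.839 to 2.33 FPKM and at 0.182 to 1.28 FPKM over the 6 libraries. Hbq1a was listed at 0 in 5 libraries. Of the 11 symbols of other globins and of the alpha-globin chaperone Ahsp, 6 were listed and 4 tested, of which 0 passed the adjusted p, and their median log2 fold change was -0.13. The median over all 4412 genes was -0.06, and it was 0.08 at the same sum of FPKM, so that this scaling moved all genes upwards alike.

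The wider erythroid program was described by 5 lists with 65 symbols, of which 59 were listed and 30 tested. None of these genes passed the adjusted p in limma-trend, and at an unadjusted p under 0.05 there were 2 higher, Aqp1 and Trim58, and 0 lower. The count was 0 higher and 0 lower after the loess fits to length and GC content, without control 1 and without pre-AML 2. It was 0 higher and 1 lower with the replicate block and without pre-AML 1, 1 higher and 0 lower without control 2, without control 3 and in limma-voom, 3 higher and 0 lower at the same sum of FPKM and 4 higher and 0 lower with no filter. Of the 30, 9 lay above and 21 below a log2 fold change of 0, with a median of -0.10, where all tested genes had 1829 above, 2583 below and a median of -0.06. All pre-AML libraries lay above all controls for 4 of the 30 and below for 2, where 6.14% and 12.8% of all tested genes did.

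**Figure D5:**
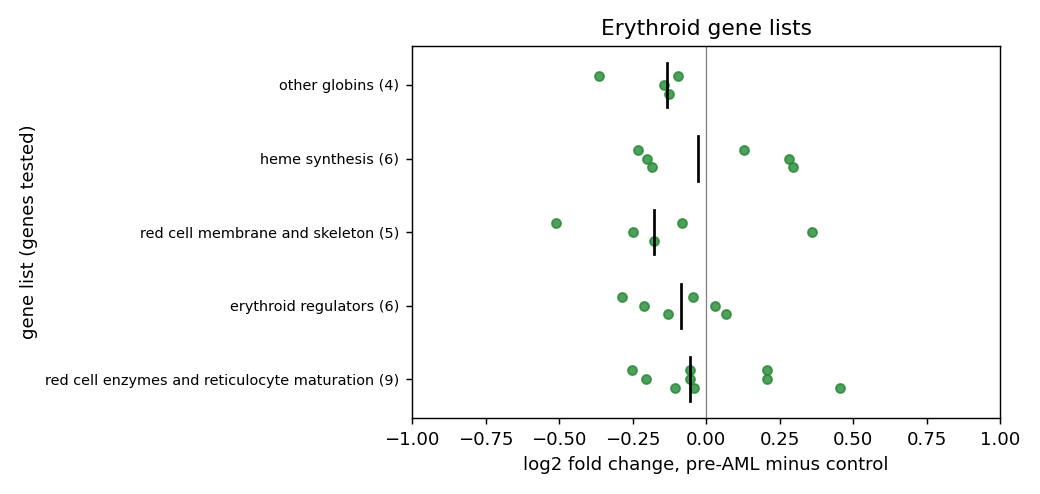
Log2 fold change, pre-AML minus control on the log2(FPKM + 1) scale, of the tested genes of 5 erythroid lists. Each point is a gene, black bars are list medians and the number of genes is given beside each name. Medians lie between -0.18 for the red cell membrane list and -0.03 for heme synthesis.

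In heme synthesis, 13 of 13 genes were listed and 6 tested, with 3 above and 3 below 0. Tmem14c, a mitochondrial protein of porphyrin import, was at 78.1 to 96.6 FPKM in control and at 60.5 to 85.4 FPKM in pre-AML libraries. Urod, which makes coproporphyrinogen, was at 2.72 to 3.81 FPKM in control and at 3.86 to 4.90 FPKM in pre-AML libraries, without overlap (log2 difference 0.28, adjusted p = 0.532 in limma-trend). Fech, the enzyme that inserts iron in the last step, was at 2.19 to 2.54 FPKM in control and at 1.62 to 2.17 FPKM in pre-AML libraries, with all pre-AML libraries below all controls (log2 difference -0.20, adjusted p = 0.601 in limma-trend).

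Of the red cell membrane and skeleton list, 15 of 16 genes were listed, 5 were tested and 10 were under 1 FPKM in every library. Aqp1, a water channel, was at 68.4 to 85.2 FPKM in control and at 89.8 to 113 FPKM in pre-AML libraries (log2 difference 0.36, adjusted p = 0.522), and Gypc, a glycophorin, was at 114 to 132 and at 91.9 to 124 FPKM.

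Regulators that erythroid cells share with megakaryocytes were well detected, and the groups overlapped. Nfe2, Gata1 and Gfi1b were at 114.6 to 131, 67.7 to 94.1 and 35.7 to 51.7 FPKM in control and at 114 to 133, 64.4 to 85.5 and 40.7 to 49.7 FPKM in pre-AML libraries. Klf1, the activator of the adult beta-globin gene in erythroid cells, had 0 to 12 reads. Of the 10 regulators, 6 were tested, with 2 above and 4 below 0 and log2 differences of 0.03 for Nfe2, -0.04 for Gata1 and 0.07 for Gfi1b. The groups overlapped for each of the 6, and 3 of the 10 were under 1 FPKM in every library.

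Among red cell enzymes and genes of reticulocyte maturation, 9 of 15 were tested. Mkrn1, a ubiquitin ligase, was at 558 to 729 and 546 to 671 FPKM in control and pre-AML libraries, and Cat, or catalase, at 293 to 361 and 261 to 349 FPKM. Gpx1, a glutathione peroxidase, was at 260 to 276 FPKM in control and at 289 to 346 FPKM in pre-AML libraries, without overlap (log2 difference 0.21, adjusted p = 0.555 in limma-trend). Trim58, a ubiquitin ligase of late erythroid cells, was at 0.843 to 0.940 FPKM and at 1.27 to 1.95 FPKM (log2 difference 0.46, adjusted p = 0.522), at levels near the filter.

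Most genes that mark nucleated erythroid precursors were close to absent. Of 8 such markers, 6 were under 1 FPKM in every library, and Rhag, a defining membrane protein, had at most 1 read. Epor, the erythropoietin receptor, was at 8.15 to 14.7 FPKM over the 6 libraries. The summed level of the platelet markers, led by Pf4 and Ppbp, was 89218 to 113167 FPKM in control libraries. It was 90367, 91656 and 60883 FPKM in pre-AML 1, 2 and 3, so pre-AML 1 and pre-AML 2 lay within the control range. All genes of pre-AML 3 summed to 376148 FPKM, against 508605 to 541784 FPKM in the other libraries, so its low value goes in part with its scaling.

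Markers of leukocytes were higher in some of the pre-AML libraries, and their part in the globin values was not tested. The 7 listed B cell markers, led by Cd74 and Cd79a, summed to 1.38 to 1.93 FPKM in control, and to 0.881, 20.8 and 250 FPKM in pre-AML 1, 2 and 3. Tyrobp, of the monocyte and macrophage list, was at 0.126 to 0.533 FPKM in control and at 4.85, 4.37 and 153 FPKM in pre-AML libraries. Lyz2 was at 2333 to 3093 FPKM over all libraries. In pre-AML 1, however, Cd68, Cd14, Ctss, C1qa, Ms4a6c and Fcgr1 of this list were at 0 FPKM. Csf1r and Adgre1 were at 0.0651 and 0.116 FPKM there, above all controls. In pre-AML 3, Cd68, Ctss and C1qa were at 17.0, 47.6 and 54.1 FPKM. Pre-AML 1, with the highest Hba-a1, had low B cell markers, and its Tyrobp lay above all controls. Gzma was at 7.25 FPKM in pre-AML 1, against at most 0.353 FPKM in control. Without pre-AML 3 the log2 difference of Hba-a1 was 0.52. Neutrophil markers, led by S100a8 and S100a9, summed to 1.11 to 3.49 FPKM in all libraries. T and NK cell markers, led by Nkg7 and Gzma, summed to 19.1 to 28.9 FPKM in control and to 33.2 to 35.7 FPKM in pre-AML libraries, and Gzma was the gene that passed the adjusted p of all genes tested (adjusted p = 0.00809 in limma-trend).

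Depth was lowest in control 1, with 11949551 reads, and highest in pre-AML 3, with 17810945. Relative to these reads, the authors' divisor was 0.981 to 1.01 in all libraries but pre-AML 3, where it was 1.31, so FPKM of pre-AML 3 are lower than its share of reads would give.

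The genes most like the globins over the 6 libraries are given as a description, over points that share library and depth and include both groups. The mean log2(FPKM + 1) of Hba-a1 and Hbb-bt was followed most closely by Cox6b2, H2ac8, Grtp1, Orai2 and Dctn3, with Pearson r from 0.971 to 0.981. For Alas2 they were Timm8b, Olfr550, 1700017B05Rik, Apbb1 and Nudt18, with r from 0.919 to 0.966. The 2 globins were also taken alone, after their values had been seen. Hbb-bt was then closest to Otud6b, Slc2a9, Iqgap2, Ssbp2 and Ppbp (r from 0.986 to 0.993), the last a platelet chemokine, and Hba-a1 to Csnk1g2, Myl12b, Zfp36l2, Cst3 and Nrgn (r from 0.962 to 0.977).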

How the data were processed

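The authors mapped reads to mm10 with STAR, named DESeq2 for their tests and deposited FPKM values for 14975 genes in 6 libraries (3 control, 3 pre-AML). The counting program, annotation and FPKM tool are not given in the sources used here. Columns were matched to samples by name, and 0 per-sample columns were left over.

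Reads were recovered as FPKM times exon length (GENCODE M21, 14911 genes matched) and library size. Within 0.02 of a read, 81.8% of values above 0 were whole. Recovered reads per library were between 11949551 and 17810945.

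Genes whose mean reached 1 FPKM were tested as log2(FPKM + 1) with limma-trend (limma 3.58.1, R 4.3.3), Benjamini-Hochberg adjustment and a threshold of 0.05, without covariates. The pseudocount of 1 understates changes of low genes. Tested on simulated data with 200 genes changed 4-fold, the test called all changed genes that passed the filter. These changes were larger than those of the tested members, and all genes had the same dispersion. The simulation therefore does not show whether differences of the size seen here would be called. Tables and plots used Python 3.11.15, pandas 2.3.3, numpy 2.4.6 and matplotlib 3.10.9.

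Alternatives were a pseudocount of 0.1, no filter, the same sum of FPKM per library (with and without hemoglobin genes), leaving out each library, a replicate block, removal of length and GC trends by loess (span 0.5) and limma-voom on recovered reads. Named were all listed members, the 3 highest genes of each erythroid list, any list gene past the threshold, the 2 highest of each marker list, and the 5 most correlated genes for the globin mean and for Alas2. Other named genes (Klf1, Rhag, Trim10, Trim58, Tfrc, Car2, Hbb-bh1, Hba-x, Hbq1a, Fech, Bnip3l, Prdx2 and Ube2o) were chosen after their values were seen. So were Cd68, Cd14, Ctss, C1qa, Ms4a6c, Fcgr1, Csf1r and Adgre1. Some genes that this rule names are not reported here. Members and lists were chosen with earlier results of these data known.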

Additional observations from a re-analysis of the deposited data

How the results depend on the processing

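Under 13 alternatives, 0 members and 0 erythroid list genes passed the adjusted p in every setting. The log2 difference was 0.26 to 0.64 for Hba-a1 (adjusted p = 0.311 to 0.787 in limma), -0.57 to -0.21 for Hbb-bt (0.375 to 0.787), -0.20 to -0.01 for Bpgm (0.714 to 0.974) and -0.48 to -0.16 for Hbb-y (0.361 to 0.787), each with 1 sign throughout. Hbb-b1 and Hbq1b changed sign with the same sum of FPKM (0.044 and 0.066) and with the same sum without hemoglobin genes (0.045 and 0.067), which scale pre-AML 3 upwards. Leaving out 1 library at a time gave -0.25 to 0.051 for Hbb-b1 and -0.20 to 0.037 for Hbq1b, the sign changing without pre-AML 3. With the replicate block the adjusted p was 0.569 for Hba-a1 and 0.575 for Hbb-bt, and no call changed. Deviations of same-numbered libraries correlated at -0.04, -0.12 and -0.17, so the numbers were not taken to pair the libraries. Alas2 and Slc4a1 could be tested with no filter only. With at most 71 reads of Alas2 and 34 of Slc4a1 in a library, modest differences of these genes were not detectable at this depth.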

Other observations

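Hbb-y, an embryonic globin, was at 320 to 615 FPKM in platelets of adult mice, above the Hbb-b1 row in every library, with 3662 to 4848 reads and with 0 stretches of 31 bases shared with adult globins. Hbb-bh1, the other embryonic beta-like gene, was at most at 2.33 FPKM. Among genes with a role in reticulocyte maturation, Bnip3l, a mitophagy receptor, was at 193 to 218 FPKM in control and at 163 to 225 FPKM in pre-AML libraries, and Prdx2, a peroxiredoxin that is abundant in red cells, was at 20.2 to 22.4 and 14.6 to 20.3 FPKM (log2 difference -0.25, adjusted p = 0.552 in limma-trend). Ube2o, which removes ribosomal proteins in reticulocytes, was at 27.4 to 39.3 and 33.6 to 43.9 FPKM.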
